A study of Mus musculus with 4 samples.

Results

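Kinesins and cytoplasmic dynein are the motors that carry organelles, vesicles, and protein complexes along the microtubules of an axon. The genes described here are all those whose symbols start with Kif, Klc, Dync, Dynl, or Dctn and that had at least 100 UMIs (unique molecular identifiers, each marking 1 captured RNA molecule) over the 4 libraries. Of 31053 genes in the tables, 71 had such a symbol and 65 reached 100 UMIs, with 9537655 UMIs in all. The 6 genes left out were *Kif2b*, *Kif12*, *Kif18b*, *Kif16bos*, *Kif4*, and *Kif28*, of which *Kif28* came closest to the limit with 66 UMIs, and *Kif7* was the lowest gene kept, with 111 UMIs.

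Most kinesins walk toward the plus ends of microtubules, which in axons point away from the cell body, and cytoplasmic dynein walks the other way. Kinesin-1 consists of heavy chains (*Kif5a*, *Kif5b*, *Kif5c*) and light chains (*Klc1* to *Klc4*) that bind cargo. Kinesin-2 (*Kif3a*, *Kif3b*, *Kif3c*, and the associated subunit *Kifap3*) and the kinesin-3 motors *Kif1a* and *Kif1b* carry vesicles, synaptic vesicle precursors, and mitochondria. Dynein-1 is built from a heavy chain (*Dync1h1*), intermediate chains (*Dync1i1*, *Dync1i2*), light intermediate chains (*Dync1li1*, *Dync1li2*), and several light chains (Dynl genes), and works with the dynactin complex (*Dctn1* to *Dctn6*). In sensory neurons dynein is known to carry injury signals from a damaged axon back to the cell body. Several other kinesins are best known from the mitotic spindle of dividing cells.

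The cells were GFP+ cells sorted from L4-5 dorsal root ganglia (DRGs) of *PirtEGFPf* mice, heterozygous C57BL/6 animals of 7 to 8 weeks that carry an EGFPf coding sequence in place of the *Pirt* coding sequence, so that the *Pirt* promoter, active mainly in peripheral sensory neurons, drives the label in all groups. The mice had either sham surgery or chronic constriction injury (CCI), in which loose ligatures are tied around both sciatic nerves, and ganglia were taken 7 days later. Sham surgery gave the libraries Male-Sham and Female-Sham and CCI the libraries Male-CCI and Female-CCI, and series of 4 values below follow that order. Each library was 1 pool of 20 DRGs from 5 mice. The 2 libraries with the same surgery, 1 of each sex, were its replicates. For CCI against sham the p-values thus measure the spread between pools of different sex and not between animals. Where neurons of the same libraries are compared, they measure how far the difference varies between pools, again not between animals. Since littermates had the same surgery, litter and surgery cannot be told apart.

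After filtering, the libraries held 3281, 5398, 2817, and 3638 neurons with 159941070 to 189489772 UMIs in all and a median of 32490 to 56457 UMIs per neuron. Pairs of libraries shared 215 to 513 cell barcodes as deposited and 0 to 6 after filtering. Levels are given as CPM, the UMIs of a gene for every 1000000 UMIs of the summed neurons, and a gene with 0 UMIs over all neurons of a library lies below 0.0158 to 0.0188 CPM (3 UMIs, counting error only). *Sprr1a*, an injury-induced gene that the study used to tell injured from spared neurons, marked 42, 144, 1467, and 1790 neurons as Sprr1a+ (normalized value above 1). Transcripts of *Tubb3* and of class markers placed most neurons in NP, PEP, NF, and cLTMR-like classes and in CCI-ind-like clusters, which held 45, 137, 1299, and 1639 neurons. A further 418, 727, 137, and 190 neurons lay in clusters left without a class name and were kept in the comparisons over all neurons. Among these were clusters of 861 and 342 cells in which 100% of cells held the satellite glial marker *Fabp7*. It was also held by 99.7% of a PEP5-like cluster of 331 cells and by 100% of a cLTMR-like cluster of 158 cells, both kept in their classes.

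Across the 10 neuronal classes of sham ganglia, class levels were compared for the 36 genes with at least 100 sham UMIs in every class, and their class differences were mostly moderate. The highest class exceeded the lowest by at most 2 times for 18 of them, by 2 to 3 times for 10, and by over 3 times for 8. The ratio ran from 1.34 for *Dync1li2* to 14.03 for *Kif13b*. For 27 of the 36 genes the highest class lay above the next one in both sham libraries. The large-fiber classes NF1-like (9 genes) and NF2-like (7 genes) were the highest class for more genes than any of the others. These class differences are a description without a test, since the same cells were used for clustering. The same counts were not made over all genes, so they do not set the motor genes apart from other genes.

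The 3 kinesin-1 heavy chains differed from each other in their order of classes. *Kif5b*, the most widely expressed kinesin-1 motor, was highest in NP2-like neurons at 1217 ± 15.9 CPM (SD, n = 2) and lowest in PEP3/4-like neurons at 262 ± 11.4 CPM, and all 9 steps between neighbours in its order lay apart in both libraries. *Kif5c*, a neuronal heavy chain, was highest in cLTMR-like neurons at 708 ± 70.1 CPM and lowest in NP2-like neurons at 166 ± 5.37 CPM. *Kif5a*, the neuronal heavy chain mutated in hereditary spastic paraplegia, ranged from 569 ± 41.2 CPM in NP2-like to 315 ± 21.3 CPM in PEP2-like neurons, and only 1 of its 9 neighbouring steps lay apart. NP2-like neurons therefore held the highest *Kif5b* and the lowest *Kif5c* level of the 10 classes.

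Among the other motors, *Kif13b*, a kinesin-3 that carries vesicles, had 61.2 ± 3.54 CPM in PEP3/4-like neurons and 4.36 ± 0.146 CPM in NF1-like neurons. *Kif16b*, which moves early endosomes, was highest in NF1-like neurons at 37.0 ± 2.24 CPM and lowest in NF2-like neurons at 9.11 ± 0.650 CPM, so it separated the 2 myelinated classes. *Dynll1* and *Dynll2*, which encode near-identical dynein light chains, had opposite orders. *Dynll1* fell from 3171 ± 36.5 CPM in NP3-like to 961 ± 26.6 CPM in NF1-like neurons, whereas *Dynll2* was highest in NF1-like neurons at 1195 ± 45.5 CPM and lowest in NP1-like neurons at 355 ± 10.8 CPM. *Dync1li2*, *Kif3a*, *Dctn1*, and *Kif1a* varied least, and their highest class did not lie apart from the next. Some low genes varied widely between classes. *Kif23* had 8.52 ± 1.23 CPM in cLTMR-like and 5.44 ± 0.364 CPM in NP2-like neurons and no UMI in NF2-like neurons. *Klc3* was highest in PEP3/4-like (10.1 ± 0.639 CPM) and PEP1-like neurons (8.34 ± 0.0478 CPM) and lowest in cLTMR-like neurons (0.0955 ± 0.0812 CPM).

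**Figure D1:**
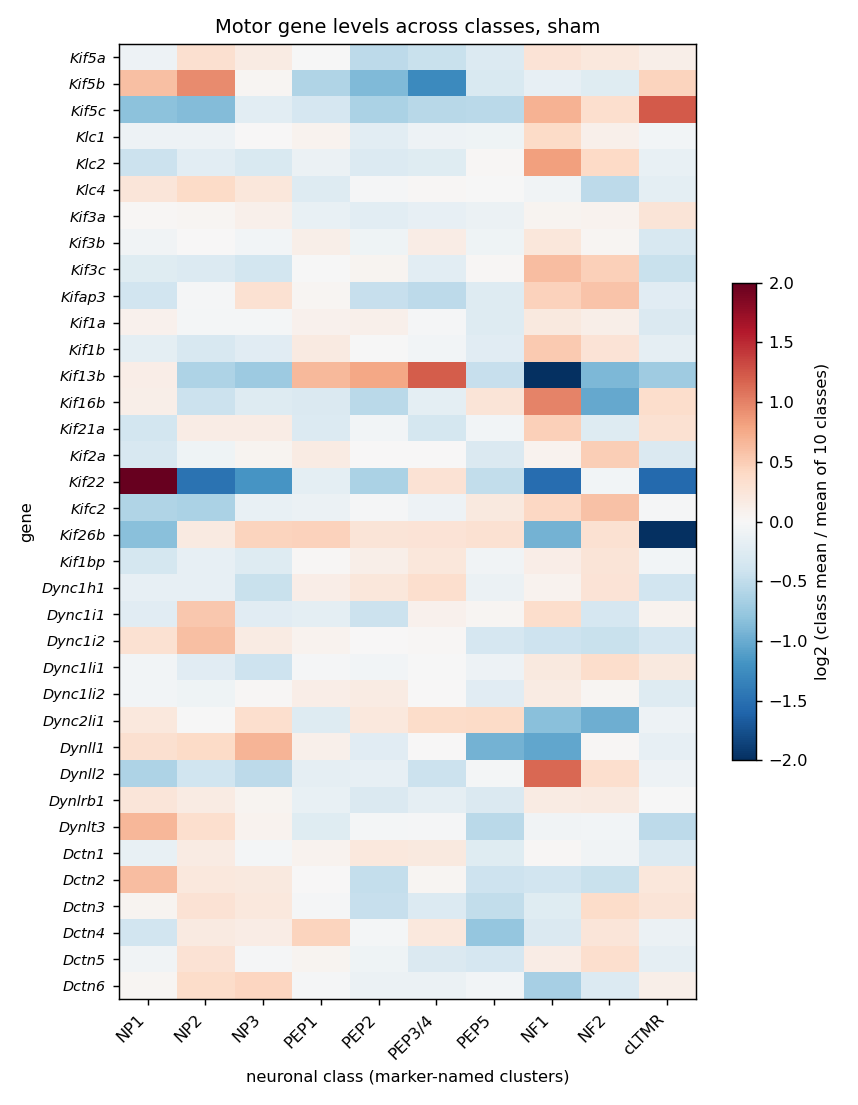
Levels of the 36 genes with at least 100 sham UMIs in every class, shown by color as the log2 ratio of the class mean over 2 sham libraries to the mean of 10 classes. NP1-like and NP2-like neurons hold the highest *Kif5b* and the lowest *Kif5c* levels, and the NF1-like column holds the most maxima.

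Comparing all neurons of CCI with those of sham asks whether the motor genes changed in the ganglion as a whole. Of 65 genes tested, 10 (15.4%) were called by edgeR's quasi-likelihood test (Benjamini-Hochberg adjusted p below 0.05 and absolute log2 fold change above 0.5), 3 higher and 7 lower, where 27.8% of all 17233 genes tested were called, 15.2% higher and 12.7% lower. A further 25 genes had an adjusted p below 0.05 with a log2 change of at most 0.5 in size, and the median log2 change was -0.04 over the 65 genes and -0.01 over all genes. The sham and the CCI libraries did not overlap for 52 of the 65 genes, nor for 80.2% of all genes. With the neurons of CCI-ind-like clusters left out, 5 were called (3 higher, 2 lower; 8.77% of all genes).

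*Kif22*, a chromosome-binding kinesin of the mitotic spindle (chr7:127027729-127042471, minus strand, GRCm38), had 24.7 and 35.1 CPM in the sham libraries and 230 and 221 CPM in the CCI libraries. Both CCI libraries lay far above both sham libraries, with a log2 change of 2.97 ± 0.19 (SE; adjusted p = 3.6e-04, edgeR), and of 1.94 with CCI-ind-like neurons left out. *Kif14*, a kinesin-3 of cell division, rose by 2.97 ± 0.59 on the log2 scale (adjusted p = 0.0115, edgeR) from 0.0863 and 0.269 CPM to 1.83 and 0.919 CPM. Its counts were small, with 14, 51, 298, and 147 UMIs in 5, 21, 56, and 42 neurons, and without the filter on low counts it was no longer called (adjusted p = 0.061, edgeR). *Dynlt1f*, one of several nearly identical Tctex-type dynein light chain genes (chr17:6646602-6655900, minus strand), had 14.2 and 13.7 CPM in sham and 23.9 and 24.7 CPM in CCI (log2 0.86 ± 0.05, adjusted p = 4.4e-05, edgeR). Within the last 500 bases of its transcripts, 52.7% of the windows of 91 bases also occur in another gene, so reads of these copies could be shared between them, and its log2 change was 0.35 with CCI-ind-like neurons left out.

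The 7 genes that fell are low or class-restricted kinesins and minor light chains. *Dynlrb2*, a roadblock-type light chain, had 0.820 and 0.823 CPM in sham and 0.252 and 0.275 CPM in CCI (log2 -1.58 ± 0.18, adjusted p = 4.5e-04, edgeR). *Klc3*, a kinesin light chain, fell from 4.36 and 4.61 CPM to 1.69 and 2.11 CPM (log2 -1.18 ± 0.13, adjusted p = 3.7e-04, edgeR). *Kif23*, a kinesin of the dividing cell's midbody, fell from 2.26 and 2.45 CPM to 0.836 and 1.26 CPM (log2 -1.11 ± 0.20, adjusted p = 0.0034, edgeR). For each of these genes both CCI libraries lay below both sham libraries. The classes that held most of them in sham also had fewer neurons in CCI. NP3-like neurons, highest in *Dynlrb2*, numbered 190, 239, 67, and 72, and PEP3/4-like neurons, highest in *Klc3*, 565, 969, 243, and 369. cLTMR-like neurons, highest in *Kif23*, numbered 363, 674, 114, and 208. The part of class shares in the changes over all neurons was not tested.

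*Kif26b*, an atypical kinesin without motor activity, had 36.2 and 35.8 CPM in sham and 20.1 and 21.0 CPM in CCI (log2 -0.75 ± 0.05, adjusted p = 4.3e-05, edgeR). Its paralog *Kif26a* had 3.72 and 4.12 CPM in sham and 2.38 and 2.76 CPM in CCI (log2 -0.55 ± 0.11, adjusted p = 0.0062, edgeR). *Kifc2*, a minus-end kinesin of the kinesin-14 family enriched in neurons, had 19.8 and 19.5 CPM in sham and 11.5 and 12.01 CPM in CCI (log2 -0.68 ± 0.06, adjusted p = 1.2e-04, edgeR). *Kif17*, a kinesin-2 of dendrites and cilia, fell from 1.42 and 1.32 CPM to 0.873 and 0.782 CPM (log2 -0.67 ± 0.14, adjusted p = 0.0073, edgeR). The groups again did not overlap, and the fall of *Kif17* rests on levels near 1 CPM. With CCI-ind-like neurons left out, the log2 values of *Kif26b* (-0.17), *Kifc2* (-0.26), *Kif17* (-0.49), *Kif23* (-0.45), and *Kif26a* (0.09) were no longer called, that of *Kif26a* with the other sign.

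**Figure D2:**
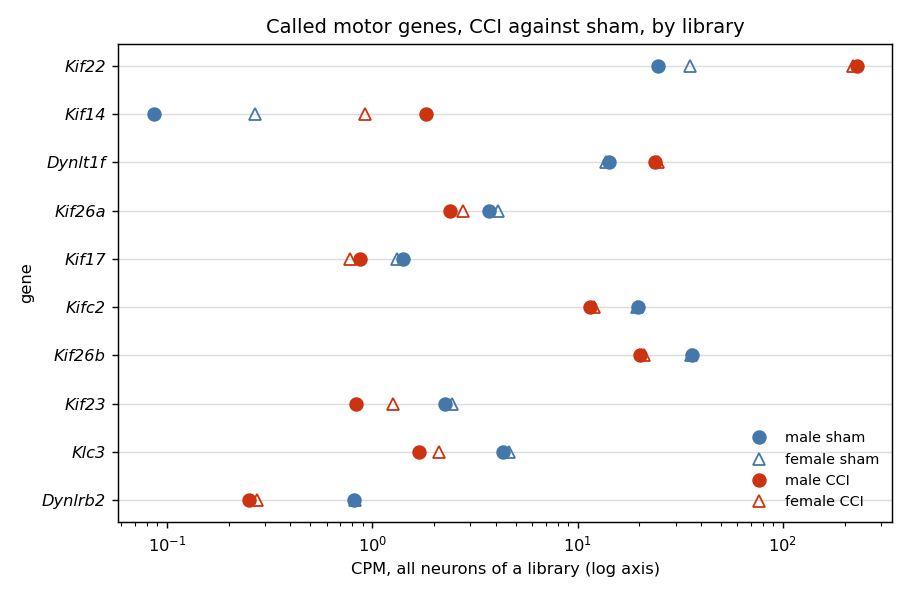
Levels of the 10 called genes in all neurons of the 4 libraries, in CPM on a log axis, with 1 point per library. *Kif22* and *Kif14* lie far higher in CCI than in sham, and the 2 libraries of each surgery lie close together for most genes.

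The kinesin-1 heavy chains, *Kif3a*, *Kif3b*, *Kif3c*, and *Kifap3* of kinesin-2, *Kif1a*, and *Kif1b* moved by less than the limit of 0.5. The kinesin-2 gene *Kif17* passed it, as given above. The heavy, intermediate, and light intermediate chains of dynein-1 and all dynactin subunits also stayed below it, while 2 dynein light chain genes (*Dynlt1f* and *Dynlrb2*) passed it. *Kif5a* had 477, 416, 351, and 348 CPM (log2 -0.30 ± 0.07) and *Kif5b* 648, 602, 526, and 522 CPM (log2 -0.20 ± 0.05), while *Kif5c* had 311, 284, 392, and 395 CPM (log2 0.46 ± 0.06). The CCI libraries thus lay below the sham libraries for 2 heavy chains and above them for the third. *Kifap3* had 361, 336, 476, and 412 CPM (log2 0.41 ± 0.08), and *Kif1a* had 498, 450, 484, and 460 CPM with overlapping groups (log2 0.05 ± 0.06). *Dync1h1* had 282, 280, 312, and 321 CPM (log2 0.23 ± 0.05). In dynactin, log2 values ran from -0.42 ± 0.06 for *Dctn6*, a subunit of the pointed-end complex, to 0.30 ± 0.06 for *Dctn4*.

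Other genes of microtubule transport were followed in lists, whose counts stand beside the 27.8% of all genes called in this comparison. Of 47 motor adaptors and regulators, 2 rose (*Ndel1*, a dynein regulator, log2 0.67, and *Madd*, a kinesin-3 adaptor, log2 0.53) and 1 fell (*Fez1*, a kinesin-1 adaptor, log2 -0.67), with a list median of 0.01. Of 39 microtubule-associated proteins, 5 rose, led by *Vash2* (log2 1.89) and the growth-associated *Dcx* (log2 1.30), and 4 fell, among them the kinesin-1 activator *Map7* (log2 -0.67), with a median of 0.10. Of 26 intraflagellar transport genes, which serve cilia, 3 fell, led by *Ift122* (log2 -0.98), with a median of -0.14. Of 18 cell cycle markers 3 rose, among them *Cenpf* (log2 1.91), and 2 fell, so that their share called was that of all genes, with a median of -0.04, and their summed level was 20.0, 20.9, 24.1, and 22.6 CPM. Of the 10 satellite glial markers 1 rose and 4 fell, with a summed level of 1482, 1810, 1100, and 1290 CPM and no marker at 0, and their part in the values above was not tested.

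Within the CCI ganglia, Sprr1a+ neurons were compared with Sprr1a- neurons of the same library, which asks how the motors of injured neurons differ from those of spared neighbours. Of 64 genes tested, 22 (34.4%) were called, 6 higher and 16 lower, where 45.2% of all genes were called, 20.8% higher and 24.4% lower. Scaling by library totals alone gave 4 higher and 20 lower, with the median of all genes shifted to -0.17, so the split leans further to lower values on that scale, which is also that of the CPM values. This comparison uses the same CCI neurons as the one above, so the values of both are given side by side and are not independent. With any *Sprr1a* UMI in place of a normalized value above 1, 13 genes were called, and 27.3% of all genes.

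*Kif22* had 391 and 383 CPM in the Sprr1a+ neurons of Male-CCI and Female-CCI and 41.0 and 55.1 CPM in their Sprr1a- neurons (log2 3.19 ± 0.18, adjusted p = 0.0027, edgeR). The few Sprr1a+ neurons of the sham libraries stood as high, at 382 and 383 CPM, beside 19.1 and 23.7 CPM in Sprr1a- neurons. With every neuron thinned to 2000 UMIs, 51.2% and 50.2% of Sprr1a+ and 6.52% and 8.60% of Sprr1a- CCI neurons held a *Kif22* UMI. *Dynlt1f* had 32.4 and 33.2 CPM in Sprr1a+ and 13.9 and 16.2 CPM in Sprr1a- neurons (log2 1.30 ± 0.06, adjusted p = 7.9e-16, edgeR). The other genes that rose were *Kif14* (log2 2.66), *Kif1c* (0.81), *Dynlt1c* (0.66), and *Dctn4* (0.54), and neither *Dynlt1c* nor *Dctn4* was called with library totals alone (0.49 and 0.37).

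The largest falls were in low genes, with *Kif23* at 0.125 and 0.186 CPM in Sprr1a+ against 1.67 and 2.36 CPM in Sprr1a- neurons (log2 -3.51 ± 0.25). *Kif26a* (log2 -3.05), *Kif6* (-2.84), and *Klc3* (-2.66) followed. *Kif26b* had 6.16 and 6.50 CPM against 36.5 and 35.8 CPM (log2 -2.34 ± 0.06), and *Kifc2* had 5.45 and 5.71 CPM against 18.7 and 18.4 CPM (log2 -1.56 ± 0.07, adjusted p = 1.6e-15, edgeR). In each of these pairs both Sprr1a+ values lay below both Sprr1a- values. Of the axonal motors, *Kif5b* fell from 685 and 658 CPM to 391 and 388 CPM (log2 -0.61 ± 0.03), *Kif5a* from 446 and 429 CPM to 270 and 268 CPM (log2 -0.53 ± 0.04), and *Dync1i1* by 0.53 on the log2 scale. *Kif5c* had 438 and 421 CPM against 339 and 368 CPM, short of the limit (log2 0.46 ± 0.04, and 0.29 with library totals alone). Beside the 24.4% of all genes called lower in this comparison stand counts of small lists. In a mixed list of 6 kinesin-14 and other kinesins (*Kif26a*, *Kif26b*, *Kif6*, *Kif9*, *Kifc2*, *Kifc3*), 5 were called lower, all but *Kif9*. Of the 7 kinesin-1 chains, 3 were called lower.

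These values pool classes that differ in their share of Sprr1a+ neurons, so the comparison was repeated within the 3 classes that held at least 10 neurons of both states in each CCI library. Among 45 genes tested in each, 8 were called in NP1-like neurons, 2 higher and 6 lower, where 21.3% of all genes were called, 9.99% higher and 11.3% lower. In NF1-like neurons 16 were called, 8 in each direction, beside 38.1% of all genes (18.0% higher, 20.1% lower), and in NF2-like neurons 9, 5 higher and 4 lower, beside 29.8% (13.9% higher, 15.9% lower). Over the 3 classes 15 calls were higher and 18 lower, and with library totals alone, which shift the median of all genes to -0.32 (NF1-like) and -0.20 (NF2-like), 10 were higher and 29 lower. *Dynlt1f* rose and *Kifc2* fell in all 3 classes. *Kif22* rose in NF1-like neurons (log2 3.62 ± 0.50) and NF2-like neurons (2.64 ± 0.46) and was not called in NP1-like neurons (1.70). A test of whether these differences varied between the 3 classes did not pass for *Kif22* (adjusted p = 0.277, edgeR interaction of class and state). Over the 9 classes described below, the interaction test did pass for *Kif22* (adjusted p = 0.0169, edgeR).

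The effect of the Sprr1a state differed between the 3 classes for 16 of the 45 genes by the interaction test (adjusted p below 0.05, edgeR), where 22.7% of all genes passed. *Dynll1* had 1889 and 1976 CPM in Sprr1a+ and 882 and 992 CPM in Sprr1a- NF1-like neurons (log2 1.31 ± 0.11), and log2 values of 0.47 in NF2-like and -0.04 in NP1-like neurons. *Kifap3* rose in NF1-like neurons from 616 and 571 CPM to 1064 and 987 CPM (log2 1.05 ± 0.10) and reached 0.65 in NF2-like and 0.15 in NP1-like neurons. *Kif5c* moved in the other order, with 461 and 444 CPM against 207 and 285 CPM in NP1-like neurons (log2 0.96 ± 0.12) and a log2 value of -0.24 in NF1-like neurons. *Klc2* fell in both NF classes (log2 -0.75 and -0.76), *Dctn6* rose in both (1.10 and 0.53), and *Dync1h1* rose in NF2-like neurons (0.67).

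*Kif14* in NF1-like neurons was the extreme case of a rare signal. It had 44 and 15 UMIs in 5 of 54 and 3 of 29 Sprr1a+ neurons, and no UMI in the Sprr1a- NF1-like neurons of CCI or of sham. In each library 1 neuron held 22 and 9 of these UMIs. Against a limit of 3 UMIs over each group, the level in Sprr1a+ neurons was 28.3-fold higher than that of Sprr1a- neurons of CCI and 75.9-fold higher than that of Sprr1a- neurons of sham. This limit covers counting error only and does not allow for UMIs clumped in few neurons. With 8 neurons behind it, the call was lost when the library was left out of the model (adjusted p = 0.067, edgeR) or Sprr1a+ was set above 2 (adjusted p = 0.17, edgeR).

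**Figure D3:**
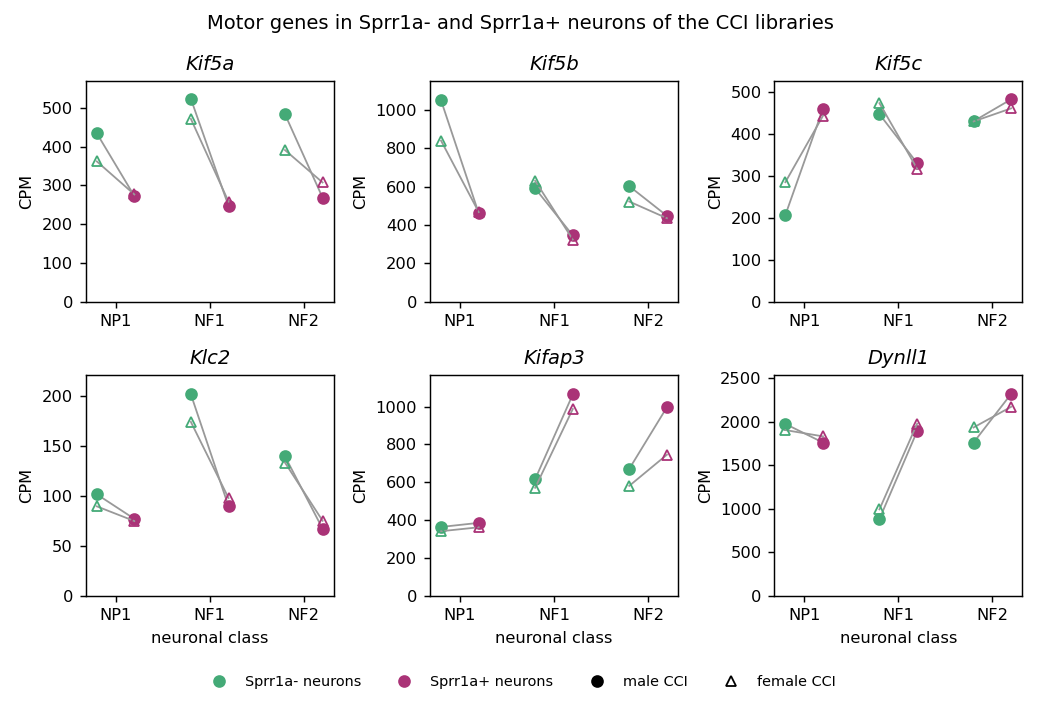
Levels of 6 motor genes in Sprr1a+ and Sprr1a- neurons of the CCI libraries, in CPM from 0, by class, with 1 point per library. *Dynll1* and *Kifap3* are higher in Sprr1a+ NF1-like neurons, *Kif5c* in Sprr1a+ NP1-like neurons, and *Kif5b* is lower in Sprr1a+ neurons of NP1 and NF1.

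Sprr1a+ neurons of CCI were also set against Sprr1a- neurons of sham in the same classes, which shares the Sprr1a+ sums with the comparison above. Of 44 genes in NP1-like neurons, 20 were called (7 higher, 13 lower), beside 41.2% of all genes (20.8% higher, 20.4% lower). Of 45 genes in NF1-like neurons, 18 were called (10 higher, 8 lower), beside 45.7% of all genes (22.0% higher, 23.7% lower), and of 45 in NF2-like neurons 15 (8 higher, 7 lower), beside 39.6% (19.2% higher, 20.5% lower). The 53 calls comprised 25 higher and 28 lower, and 17 and 40 with library totals alone. *Kif22* in NF1-like neurons had 10.1 and 11.3 CPM in sham and 261 and 287 CPM in Sprr1a+ neurons of CCI (log2 5.01 ± 0.11). *Kif5c* in NP1-like neurons had 148 and 137 CPM in sham and 461 and 444 CPM in CCI (log2 1.72 ± 0.10), the largest rise of a kinesin-1 chain in the 3 classes. *Kif21a*, a kinesin-4 that curbs microtubule growth, rose in NP1-like (log2 0.88) and NF2-like neurons (0.97).

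After the data were seen, the comparison of Sprr1a states was extended to 9 classes by clustering the cells again without injury genes and motor genes. This placed more Sprr1a+ neurons in classes named by subtype markers (21 to 156 Sprr1a+ and 31 to 381 Sprr1a- neurons per sum). Many Sprr1a+ neurons still lay outside the 9 classes, since CCI-ind-like clusters remained, the largest with 215 and 242 CCI neurons. The values below do not cover those neurons. In 8 of the 9 classes the cluster with the most neurons was the same for both states, and in NP2-like neurons it was not. Of 459 pairs of gene and class, 132 (28.8%) were called, 52 higher and 80 lower, where 33.1% of all pairs were called, 16.0% higher and 17.0% lower. Of 51 genes tested, *Kif22* (log2 1.70 in NP1 to 4.15 in NP2) and *Dynlt1f* (0.71 in NP2 to 2.07 in NF1) rose in 9 of 9 classes, and *Kifc2* fell in 9 of 9 (-0.89 in PEP3/4 to -2.09 in NF2). *Kif26b* fell in 8 classes, all but NF1-like, *Kif16b* in 7, *Kif5b* in 6, and *Kif5a* and *Dync1i1* in 5 each. The interaction of state and class passed for 35 of the 51 genes, and for 60.8% of all genes. It passed for *Kif22* (adjusted p = 0.0169, edgeR) and *Dynlt1f* (adjusted p = 4.2e-05, edgeR), whose rises thus differed in size between the classes. For *Kifc2* it did not pass (adjusted p = 0.067, edgeR).

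The differences of *Kif5b* and *Kif5c* varied in size, and for *Kif5c* in direction, between the classes. In NP2-like neurons *Kif5b* went from 1418 and 1416 CPM in Sprr1a- to 398 and 436 CPM in Sprr1a+ neurons (log2 -1.81 ± 0.07), and in PEP3/4-like neurons from 286 and 299 CPM to 289 and 244 CPM (log2 -0.04 ± 0.08). *Kif5c* rose in NP2-like neurons from 204 and 204 CPM to 447 and 400 CPM (log2 1.00 ± 0.08) and fell in cLTMR-like neurons from 784 and 853 CPM to 435 and 411 CPM (log2 -0.91 ± 0.08). It also rose in NP1-, PEP1-, PEP3/4-, and PEP5-like neurons by 0.77 to 0.97. In NP2-like neurons 79.9% of Sprr1a+ neurons lay in 1 cluster and 71.0% of Sprr1a- neurons in another. State and cluster are thus hard to tell apart in that class, and the part of each in its values was not tested.

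The classes thus lay closer together in *Kif5b* and *Kif5c*, but not in *Kif5a*. The highest class exceeded the lowest in *Kif5b* by 4.96 times (Male-CCI) and 4.73 times (Female-CCI) among Sprr1a- neurons and by 1.61 and 1.91 times among Sprr1a+ neurons. For *Kif5c* the ratios were 3.84 and 4.17 among Sprr1a- and 1.56 and 1.58 among Sprr1a+ neurons. Over the 29 motor genes with at least 50 UMIs in every sum, the range was narrower in Sprr1a+ neurons of both libraries for 14 (48.3%) and wider for 10 (34.5%), against 56.5% and 22.6% of 2957 genes, so narrowing was no more common among motor genes than among other genes. The genes whose range widened included *Kifap3*, from 2.00 and 1.80 to 3.10 and 3.18 times, and *Dync1h1*, from 1.70 and 1.68 to 2.31 and 2.51 times. Among Sprr1a- neurons the highest *Kif5b* and the lowest *Kif5c* level were those of NP2-like neurons, whose 2 states lay mostly in different clusters. How far this, or neurons assigned to a wrong class, enters these ranges was not tested.

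**Figure D4:**
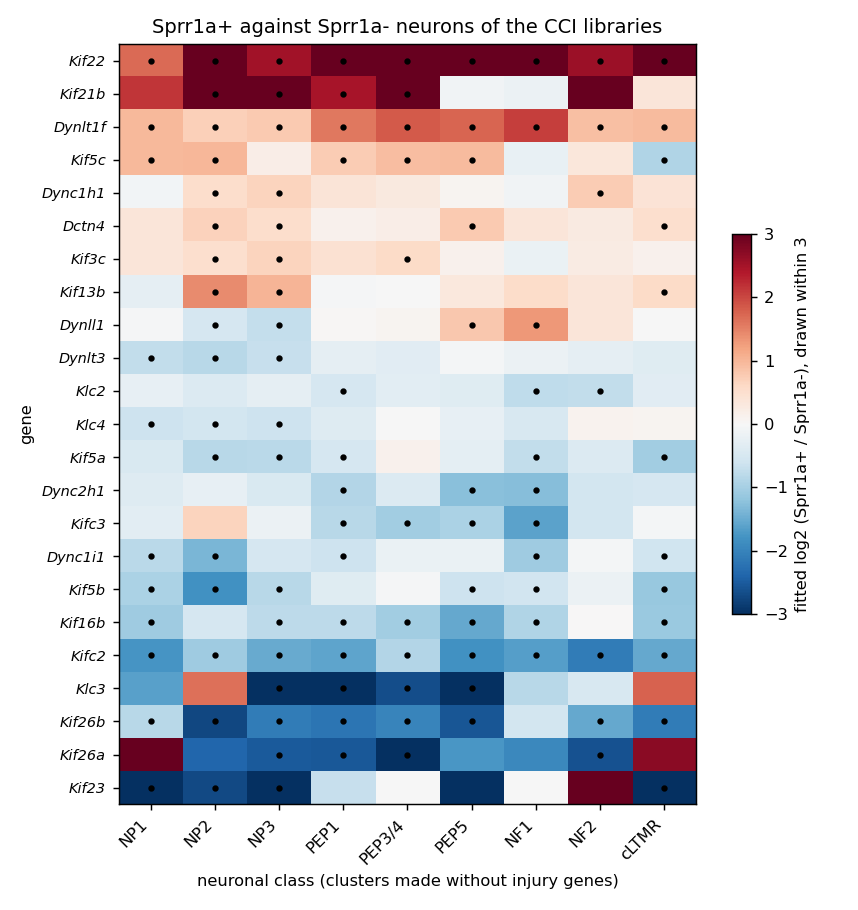
Log2 change between Sprr1a+ and Sprr1a- neurons of the CCI libraries in 9 classes (columns) for the genes called in at least 3 of them (rows), with color limited to 3 in size and a dot where a gene was called. *Kif22* and *Dynlt1f* are higher and *Kifc2* lower in every class, while *Kif5c* is higher in 5 classes and lower in cLTMR-like neurons.

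Sprr1a- neurons of CCI were compared with Sprr1a- neurons of sham in 10 classes, which asks whether spared neurons changed. Of 470 pairs of gene and class, 20 (4.26%) were called, 11 higher and 9 lower, in 8 genes. Of all pairs 3.1% were called, 1.86% higher and 1.25% lower, with 0.986% of genes in NF1-like to 4.49% in NP2-like neurons. *Kif22* and *Dctn6* accounted for 14 of the 20. *Dctn6* fell in 7 classes by 0.50 to 0.69 on the log2 scale, most in NP3-like neurons, where it had 205 and 202 CPM in sham and 133 and 129 CPM in CCI, and its log2 value was negative in all 10. With library totals alone the calls in PEP3/4-, PEP5-, and cLTMR-like neurons were lost. Outside NP1-, NP3-, and PEP5-like neurons the calls of *Dctn6* were lost without Female-CCI. Within CCI it had 121 and 111 CPM in Sprr1a+ and 115 and 106 CPM in Sprr1a- neurons and was not called (log2 0.25 ± 0.04, and 0.08 with library totals alone). The few Sprr1a+ neurons of sham had 180 and 163 CPM of *Dctn6*. Satellite glia-like cells had 74.3, 62.5, 47.3, and 60.1 CPM from 83, 43, 33, and 33 UMIs. Whether its fall is particular to spared neurons was not tested. *Kif22* rose in 7 classes by 0.60 to 1.02, for instance in PEP2-like neurons from 19.1 and 20.3 CPM to 34.2 and 45.6 CPM (log2 1.01 ± 0.13).

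The rise of *Kif22* in Sprr1a- neurons was small beside its level in Sprr1a+ neurons. Its level in satellite glia-like cells was also higher in CCI, but on few UMIs. In satellite glia-like cells *Kif22* had 4.48, 8.72, 18.6, and 29.1 CPM from 5, 6, 13, and 16 UMIs. Thinned to 2000 UMIs, 0.538%, 1.38%, 3.39%, and 5.56% of these cells (median 4188 to 5160 UMIs) and 3.61%, 4.59%, 6.52%, and 8.60% of Sprr1a- neurons (median 32126.5 to 51202.5 UMIs) held a *Kif22* UMI. For the satellite glia-like cells the 95% intervals of these shares overlapped, with 0.0136% to 2.96% in Male-Sham and 2.07% to 11.7% in Female-CCI. In addition, 65.3% and 60.8% of the Sprr1a- neurons of CCI held some *Sprr1a* UMI, against 2.19% and 4.04% in sham. The part of free RNA and of weakly marked injured neurons in the rise was not tested, and without Female-CCI 8 of the 20 calls were left beside 2 others (*Klc3* in PEP1-like and *Kif22* in NF1-like neurons), with *Kif22* no longer called in NP3-, PEP1-, PEP5-, and cLTMR-like neurons.

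The other calls in Sprr1a- neurons were *Kif5c* (log2 0.78), *Kif2a* (0.55), a depolymerizing kinesin-13, and *Kif21a* (0.52) in NP1-like neurons, *Kif13a* in PEP2-like (0.53), *Kif23* in NP2-like (-0.63), and *Dynlrb2* in NP3-like neurons (-1.32). In Sprr1a- NP1-like neurons *Kif22* had 30.6 and 93.7 CPM in sham and 86.4 and 188 CPM in CCI, with overlapping groups and no call (log2 1.17 ± 0.95). One of the 2 NP1-like clusters held 6, 25, 102, and 116 cells of the 4 libraries.

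**Figure D5:**
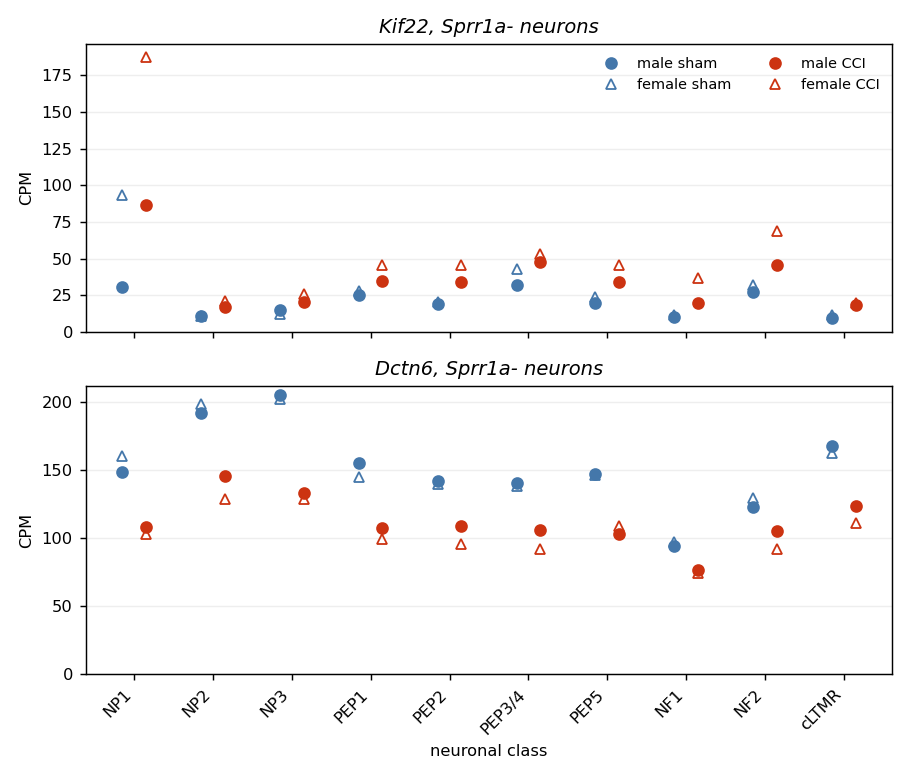
Levels of *Kif22* and *Dctn6* in Sprr1a- neurons of 10 classes, in CPM from 0, with 1 point per library. *Dctn6* is lower in CCI than in sham in every class, and *Kif22* is higher in 9 of the 10, with overlapping groups in NP1-like neurons.

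The promoter sequences of *Kif22* and *Dynlt1f*, which rose in Sprr1a+ neurons of 9 classes, and of *Kif5c*, which differed in direction between classes, are shown, with 4 short motifs searched on both strands: CCAAT (bound by NF-Y), TTTGAA (a cell cycle element), TGACGTCA (the binding site of CREB and ATF factors), and TGANTCA (the binding site of AP-1 factors such as Jun). The genes and the motifs were chosen after the values were seen. In the 250 bases before the RefSeq start (GRCm38.p6), 34.5%, 16.3%, 1.62%, and 6.87% of 27025 promoters held them in that order, and so did 22, 8, 4, and 0 of the 48 motor genes that matched. Each sequence reads 5′ to 3′ toward the start, with motifs in capitals. *Kif22* (chr7:127042421-127042670, minus strand) held 2 CCAAT and 2 TTTGAA motifs, *Dynlt1f* (chr17:6655940-6656189, minus strand) none of the 4, and *Kif5c* (chr2:49619036-49619285, plus strand) 1 TGACGTCA motif.
Kif22: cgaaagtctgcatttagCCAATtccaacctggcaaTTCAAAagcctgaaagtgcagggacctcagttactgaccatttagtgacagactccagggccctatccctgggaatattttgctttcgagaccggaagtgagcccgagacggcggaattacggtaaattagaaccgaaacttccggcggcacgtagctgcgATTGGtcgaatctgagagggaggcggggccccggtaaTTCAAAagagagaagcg
Dynlt1f: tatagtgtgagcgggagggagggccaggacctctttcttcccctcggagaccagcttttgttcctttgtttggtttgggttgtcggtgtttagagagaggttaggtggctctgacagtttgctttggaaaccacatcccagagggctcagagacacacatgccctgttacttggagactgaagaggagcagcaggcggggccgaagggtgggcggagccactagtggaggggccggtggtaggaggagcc
Kif5c: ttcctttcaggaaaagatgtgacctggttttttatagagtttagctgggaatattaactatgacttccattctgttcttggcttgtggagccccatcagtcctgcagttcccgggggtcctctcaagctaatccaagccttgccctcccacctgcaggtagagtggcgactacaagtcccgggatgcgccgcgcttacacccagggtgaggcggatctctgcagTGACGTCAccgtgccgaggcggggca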

How the data were processed

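The authors made UMI counts with Cell Ranger on mm10 (2.1.1 per the labels, 3.0.2 per the file headers), and the deposited matrices hold whole counts of called cells, not normalized. Doublets were scored with Scrublet (scanpy 1.11.5) and removed in the number the study gives per library, and cells with under 1500 genes or over 10% mitochondrial UMIs were dropped. Seurat 5.3.0 integrated the libraries (3000 variable genes, 20 principal components) and clustered at resolution 0.8, and clusters were named "-like" from at least 3 markers. Sprr1a+ means a natural log value of UMIs per 10000 plus 1 that is above 1. Counts were summed per library, class, and state (at least 10 neurons) and tested with edgeR 4.0.16 (robust quasi-likelihood, filterByExpr, TMM). Within CCI the library was a term in the model. For Sprr1a+ against Sprr1a- neurons over all classes, the sums of the sham libraries also entered the estimate of the spread. Each comparison was adjusted over all genes tested, and the scripts were tested on simulated data.

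Motor genes, lists, and tests were chosen with earlier results of these data known. Every motor gene may be named, with full statistics for those called in all neurons or called alike in every comparison and class. 17 motor genes have 100 to 1000 UMIs, 25 overlap a gene on the other strand, and *Dynlt1b* and *Kif17* overlap one on the same strand. Of *Dynlt1b*, *Dynlt1c*, *Dynlt1f*, *Kifc1*, and *Dynlt1a* 35.4% to 100% of end windows occur in another gene, so their values are uncertain. Alternatives included DESeq2 1.42.0, other scalings and *Sprr1a* limits, and leaving out libraries. R 4.3.3, limma 3.58.1, Python 3.11.15, numpy 2.4.6, pandas 2.3.3, scipy 1.17.1, and matplotlib 3.10.9 were used.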

Additional observations from a re-analysis of the deposited data

Results flagged for a closer look

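The difference between Sprr1a+ and Sprr1a- neurons of CCI was itself different between NP1-, NF1-, and NF2-like neurons for 16 motor genes, by edgeR's test of the interaction of class and state with Benjamini-Hochberg adjustment over 12371 genes, of which 22.7% passed. Among dynein genes the adjusted p was 1.17e-06 for *Dynll1*, 1.83e-04 for *Dynlrb1*, 1.97e-04 for *Dync1h1*, 0.00142 for *Dync1i1*, 0.00444 for *Dynlt3*, and 0.00506 for *Dync1i2*. *Dynll1* had log2 values of 1.31 in NF1-, 0.47 in NF2-, and -0.04 in NP1-like neurons. Among dynactin genes it was 0.00172 for *Dctn6* and 0.0167 for *Dctn3*, whose log2 values were 0.31 in NF1-, -0.19 in NF2-, and -0.16 in NP1-like neurons. Among kinesins it was 7.02e-05 for *Kif5c*, 2.46e-04 for *Kifap3*, 0.00103 for *Kif5b*, 0.0131 for *Kif1b*, 0.0231 for *Kif14*, 0.0307 for *Kif16b*, 0.0319 for *Kif3c*, and 0.0404 for *Klc2*. *Kif5c* had log2 values of 0.96 in NP1-, 0.32 in NF2-, and -0.24 in NF1-like neurons. *Kif16b* fell in NP1- and NF1-like neurons (log2 -1.08 and -0.89) and had 0.14 in NF2-like neurons. The value of *Kif14* rests on 8 neurons.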

How the results depend on the processing

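Over all neurons 10 motor genes were called, and the alternatives gave 9 to 12, except that 5 were called with CCI-ind-like neurons left out. There *Kif26a* had the opposite sign (log2 0.091). In Sprr1a+ against Sprr1a- neurons of CCI the 22 calls became 13 with any *Sprr1a* UMI as the limit, and 19 to 24 otherwise. By class, the 33 calls became 15 with any *Sprr1a* UMI, when NF2-like neurons were too few to be tested, and *Kifc3* in NF1-like neurons had the opposite sign (log2 0.79). Genes that differed between classes numbered 8 in place of 16 with any *Sprr1a* UMI and 12 to 22 otherwise. Setting Sprr1a+ CCI neurons against Sprr1a- sham neurons gave 37 to 57 calls (53 as reported), and *Dync2h1* in NF1-like neurons had the opposite sign with any *Sprr1a* UMI (log2 0.017). The 20 calls in Sprr1a- neurons became 13 with DESeq2 and 9 with any *Sprr1a* UMI over 9 classes, and ranged from 10 (without Female-CCI) to 21 with 1 library left out. The causes of these changes were not tested. With sex as a replicate block the counts were 10 over all neurons, 52 for Sprr1a+ CCI against Sprr1a- sham neurons, and 25 for Sprr1a- neurons, and without the library block within CCI they were 22, 33 by class, and 12 for the interaction. The male and female libraries share no animals, so the numbers do not pair the samples. Leaving out a CCI library within classes leaves no residual degrees of freedom and was not run. The 4 libraries allow no estimate between animals, and 17 genes have at most 1000 UMIs.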

Other observations

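Other motor genes were called between Sprr1a+ and Sprr1a- neurons of CCI in 3 or 4 of the 9 classes. The test of the interaction of state and class passed for *Kif21b*, *Kif13b*, *Dctn4*, and *Dynll1* and not for *Klc4* (adjusted p = 0.109, edgeR). *Kif21b*, a kinesin-4 of neurons, was called higher in NP2-, NP3-, PEP1-, and PEP3/4-like neurons, in NP2-like neurons at 1.82 and 2.47 CPM against 0.169 and 0.272 CPM (log2 3.13 ± 0.67). In PEP5-, NF1-, and cLTMR-like neurons, where its level was 5.74 to 15.8 CPM in Sprr1a- neurons, it was not called (log2 -0.18 to 0.36). *Kif13b* was called higher in 3 classes, with its highest log2 value of 1.42 in NP2-like neurons. *Dctn4*, a dynactin subunit, was called higher in 4 classes and had a positive log2 value in 9 of 9 (0.12 to 0.78). *Klc4*, a kinesin light chain, was called lower in 3 classes (lowest log2 -0.62 in NP3-like neurons). *Dynll1* was called higher in PEP5- and NF1-like neurons (log2 0.82 and 1.30) and lower in NP2- and NP3-like neurons (-0.51 and -0.71).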
